A study of Sus scrofa with 2 samples.

Results

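Calcium/calmodulin-dependent protein kinases are described here through 5 genes, CAMK1D, CAMK2B, CAMK2D, CAMK2G and CAMK4. They were chosen by name and looked up by symbol among the 31908 genes of the pig count matrices, where all 5 were found. Single-nucleus RNA sequencing was performed on 1 piece of the body of the pancreas from a WT bama pig and 1 piece from a PIGinH11 pig. The PIGinH11 pig is a transgenic bama pig with a knock-in of GIPRdn (a dominant-negative GIP receptor), hIAPP (human islet amyloid polypeptide) and PNPLA3I148M at the H11 locus, driven by promoters of beta cells or liver. Both pigs were 18 months old and were kept on control diet up to 6 months of age. Both then received a high-fat and high-sucrose diet (HFHSD) of 37% sucrose, 53% control diet and 10% lard for 12 months, so the WT pig is a control for the transgenes and not for the diet. Each group was thus 1 library of 1 animal, no test between the libraries was possible, and the genotype cannot be told apart from the animal, the tissue piece or the library.

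These kinases are switched on when calmodulin, loaded with calcium, binds to them. CAMK1D and CAMK4 work as single subunits that an upstream kinase has to phosphorylate, and CAMK4 acts in the nucleus on transcription factors such as CREB, with a known role in T cells. CAMK2B, CAMK2D and CAMK2G encode subunits of CaMKII, which assemble into a large ring that phosphorylates itself and so outlasts the calcium signal. In the pancreas, rises of calcium drive the release of digestive enzymes by acinar cells and of hormones by endocrine cells, and CAMK1D lies in a region associated with type 2 diabetes in people. The study named CAMK1D as a gene of its idling acinar subset.

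All 5 are protein-coding genes of Sscrofa11.1, where the RefSeq annotation places CAMK1D at chr10:59199541-59630191, CAMK2B at chr18:50862225-50956263, CAMK2D at chr8:108916019-109221317, CAMK2G at chr14:76535095-76632381 and CAMK4 at chr2:115910403-116234835. They span from 94.0 kb (CAMK2B) to 431 kb (CAMK1D). UMIs (unique molecular identifiers, 1 per captured RNA molecule) were counted without regard to gene length, so each gene is compared across classes and libraries, and levels of different genes are not compared with each other. Where the CaMKII genes are given as shares of their summed UMIs, the share of one gene is compared between classes only.

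The WT matrix held 13619 barcodes with a median of 3216 UMIs and the PIGinH11 matrix 14964 barcodes with a median of 1181.5 UMIs. After filters and doublet removal, 11854 WT and 13126 PIGinH11 nuclei were retained, and 60 barcodes of the matrices occurred in both libraries. Clustering without the 5 kinase genes gave 11 classes with at least 20 nuclei in each library, which were named from marker genes and are called acinar-like, ductal-like and so on. They ranged from 27 WT nuclei of the delta-like and lymphocyte-like classes to 9116 PIGinH11 nuclei of the acinar-like class. In each of these classes, the summed level of its own markers was higher than in any other class of the same library. The classes were named from these same markers, many of them from the study's lists chosen on these libraries, so this is no separate check. Single markers were least often highest in their own class for the delta (5 of 10) and acinar lists (7 of 10) in PIGinH11 and the alpha list (7 of 10) in WT. The class with most acinar marker RNA besides the acinar-like one was the Schwann-like class of the PIGinH11 library (115 nuclei, median 863 UMIs), at 40.8% of the acinar-like level, compared with 20.8% in WT. The heat-shock gene HSP70.2 ranged from 477 to 1316 CPM (UMIs per 1000000 UMIs) over the 5 large acinar-like clusters of the WT library and from 7.06 to 14.6 over those of the PIGinH11 library, and its part in any difference between the libraries was not tested.

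Each gene had its own distribution over the classes. CAMK1D was highest in acinar-like nuclei, CAMK2B was found in endocrine-like nuclei, CAMK2D was highest in ductal-like nuclei, CAMK2G was high in endothelial-like and mural-like nuclei, and CAMK4 was highest in lymphocyte-like nuclei. Levels are given as the UMIs of a gene per 1000000 UMIs of a class in a library (CPM), with exact 95% Poisson intervals. All intervals cover counting error only, not the spread between animals.

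**Figure D1:**
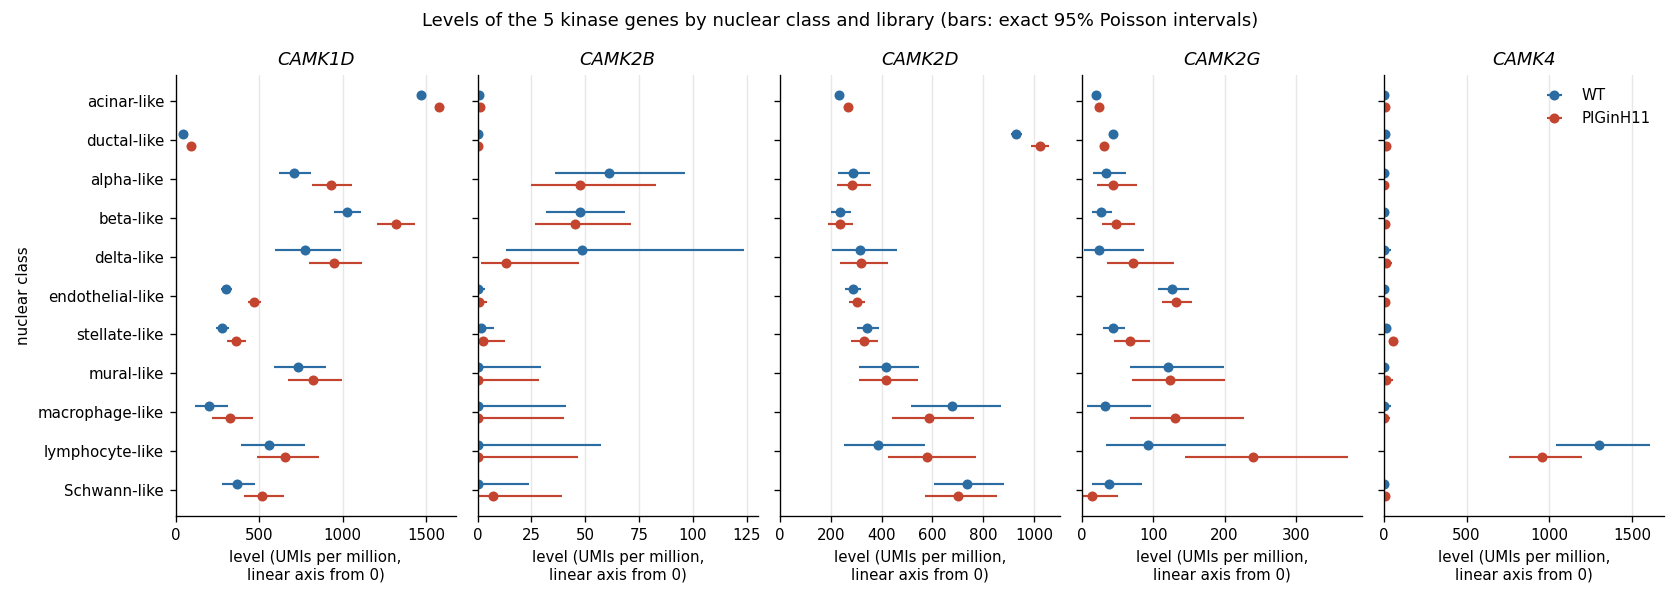
Level of each kinase gene (horizontal axis, CPM, linear from 0, with a scale of its own per gene) in the 11 nuclear classes (vertical axis) for the WT (blue) and PIGinH11 (red) libraries, with exact 95% Poisson intervals. The highest class is the same in both libraries for CAMK1D (acinar-like), CAMK2B (alpha-like), CAMK2D (ductal-like) and CAMK4 (lymphocyte-like), and differs for CAMK2G.

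CAMK1D was the most abundant in acinar-like nuclei, with 1470.1 CPM (1456 to 1484) in the WT library and 1579 CPM (1559 to 1599) in the PIGinH11 library. At least 1 CAMK1D UMI was found in 85.7% of WT and 73.4% of PIGinH11 acinar-like nuclei. The library with the higher share was the deeper one, and with each nucleus thinned to 500 UMIs the shares were 46.6% and 46.7%. In ductal-like nuclei, of median depth 3410 and 1024.5 UMIs beside 2846 and 1200 in acinar-like nuclei, 12.0% and 11.2% had a CAMK1D UMI, or 2.28% and 5.50% after thinning. Beta-like nuclei came next, with 1026 CPM (947 to 1110.0) in WT and 1318 CPM (1207 to 1435) in PIGinH11. The acinar-like level was 1.43 times (1.32 to 1.55) the beta-like level in WT and 1.20 times (1.10 to 1.31) in PIGinH11, so the order of these classes was the same in both libraries and lay outside counting error.

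Among endocrine-like nuclei, the CAMK1D level was higher in beta-like than in alpha-like nuclei, by 1.44-fold (1.23 to 1.70) in WT and 1.41-fold (1.21 to 1.66) in PIGinH11. Alpha-like nuclei had 710.4 CPM (618 to 813) in WT and 931 CPM (816 to 1058) in PIGinH11. Delta-like nuclei had 775 CPM (597 to 989) and 948 CPM (800.4 to 1116), which overlapped with alpha-like nuclei in both libraries. Outside the epithelium, mural-like nuclei (vascular smooth muscle and pericytes) had 732 CPM (589 to 898) in WT and 824 CPM (675 to 995) in PIGinH11. This was 2.65-fold (2.05 to 3.41) and 2.28-fold (1.77 to 2.93) the level in stellate-like nuclei. Lymphocyte-like nuclei had 558 and 655 CPM, which was 2.80-fold (1.55 to 5.24) and 2.01-fold (1.26 to 3.27) the level in macrophage-like nuclei, so that the immune classes also differed beyond counting error.

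Lower CAMK1D levels were found in Schwann-like (367 CPM in WT and 518 CPM in PIGinH11), endothelial-like (303 and 468 CPM), stellate-like (276 and 361 CPM) and macrophage-like nuclei (199 and 325 CPM). A single WT Schwann-like nucleus held 27 of the 57 CAMK1D UMIs of its class, and without it the WT level was 205 CPM. Acinar RNA was present in these nuclei too, and it was measured with the 10 acinar markers used for naming. The median acinar marker in Schwann-like nuclei stood at 22.1% of its acinar-like level in WT and 39.8% in PIGinH11. CAMK1D stood at 24.96% in WT, a value that is lower without the nucleus of 27 UMIs, and at 32.8% in PIGinH11. With that nucleus counted, CAMK1D was close to these markers. CAMK1D was near them in stellate-like nuclei as well, at 18.8% and 22.9% for CAMK1D and 13.6% and 17.0% for the median marker. CAMK1D stood further above the median marker in beta-like nuclei (69.8% and 83.5%, beside 4.35% and 5.26%), lymphocyte-like nuclei (38.0% and 41.5%, beside 5.65% and 9.47%) and mural-like nuclei (49.8% and 52.2%, beside 23.1% and 14.5%). It was also above the median marker in macrophage-like nuclei (13.6% and 20.6%, beside 4.26% and 3.61%) and endothelial-like nuclei (20.6% and 29.7%, beside 8.05% and 15.1%).

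Ductal-like nuclei had the lowest CAMK1D level, with 41.6 CPM (37.4 to 46.1) from 357 UMIs in WT and 90.8 CPM (80.9 to 102) from 302 UMIs in PIGinH11. The acinar-like level was 35.4-fold (31.9 to 39.3) that of ductal-like nuclei in WT and 17.4-fold (15.5 to 19.5) in PIGinH11. Of 20189 genes, 11% were at least 2-fold higher in acinar-like than in ductal-like nuclei in both libraries, and of the 5 kinase genes CAMK1D was 1 with enough UMIs to read, since CAMK2B had 22 and 14 UMIs in all acinar-like nuclei. The ductal-like level of CAMK1D was 2.83% of its acinar-like level in WT and 5.75% in PIGinH11. The 10 acinar markers stood at 2.65% to 6.26% in WT and 5.40% to 9.48% in PIGinH11. CAMK1D therefore lay within the range of these markers in both libraries. Whether its UMIs in ductal-like nuclei came from acinar RNA or from expression there was not tested. The log2 ratio of acinar-like over ductal-like nuclei, 5.14 in WT and 4.12 in PIGinH11, was 3.02 and 2.29 when doublets were kept and 3.50 and 3.21 when nuclei above 1300 UMIs were left out.

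**Figure D2:**
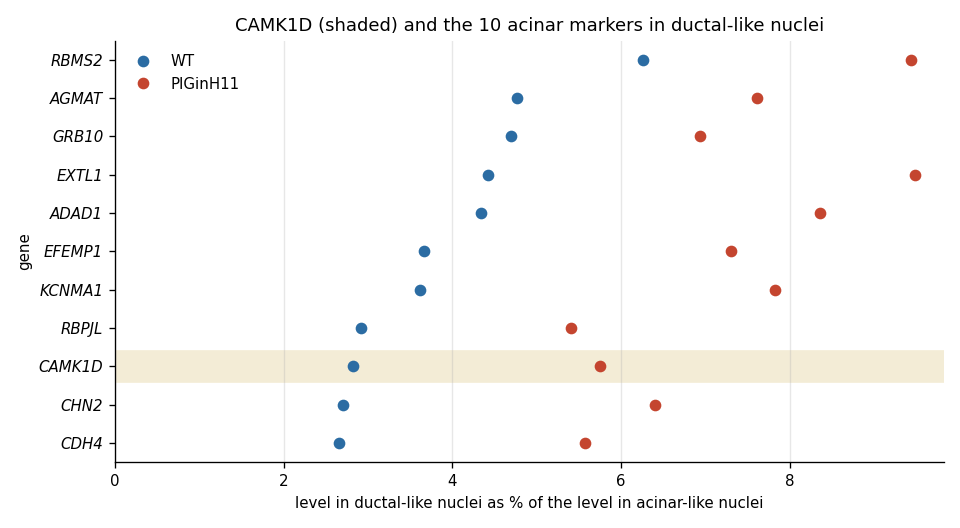
Level in ductal-like nuclei as a percentage of the level in acinar-like nuclei (horizontal axis) for CAMK1D (shaded) and the 10 acinar marker genes (vertical axis), in WT (blue) and PIGinH11 (red). CAMK1D, at 2.83% and 5.75%, lies among the markers in both libraries, and the percentage of every gene shown is higher in PIGinH11.

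The acinar-like class was made of 5 large clusters with 811 to 6235 nuclei and a small one of 31 nuclei led by cell-cycle genes. CAMK1D was high in each of the 5 large clusters, from 1009 to 1657 CPM in WT and from 1168 to 1742 CPM in PIGinH11. In both libraries the highest level was in the cluster led by MYO18B and ADAD1, whose nuclei had a median of 4819.5 UMIs in WT and 2732 in PIGinH11. The lowest WT level was in a cluster with 27.7% of UMIs from digestive enzyme genes, where CAMK1D was 1395 CPM once these enzymes were taken out of the total. The cluster led by HSP70.2 itself had 1449 CPM in WT and 1684 CPM in PIGinH11. The 5 large clusters differed by less than 2-fold within each library.

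Since the study tied CAMK1D to an idling state, acinar-like nuclei of each library were ranked by their share of UMIs from 16 digestive enzyme genes and divided into 5 groups of equal size. Levels were then computed without the enzyme UMIs, so that enzymes did not dilute the other genes. In WT, CAMK1D was 1665 CPM (1638 to 1692) in the group with least enzyme RNA, then 1694, 1622 and 1542 CPM, and 1359 CPM (1321 to 1398) in the group with most. The PIGinH11 levels from least to most enzyme RNA were 1603 CPM (1551 to 1655), 1633, 1717, 1722 and 1698 CPM (1657 to 1739.8). CAMK1D was therefore lower with more enzyme RNA in WT, with a log2 ratio of the highest over the lowest group of −0.29 (−0.34 to −0.25), and slightly higher in PIGinH11, with 0.084 (0.025 to 0.14). The groups held unlike enzyme shares in the 2 libraries, with medians from 4.76% to 15.3% in WT and from 3.48% to 7.83% in PIGinH11. The last PIGinH11 group was thus near the third WT group (7.78%), and the gradients cover different ranges. Among 16170 genes, 22.3% had a WT ratio as low or lower and 59.2% a PIGinH11 ratio as low or lower. These ranks leave out the counting error of each gene, so whether either value stood apart was not tested.

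Depth moved with the groups in opposite ways, from a median of 5152 down to 1265 UMIs per nucleus in WT and from 970.5 up to 1705 in PIGinH11, and its part in the CAMK1D gradient was not tested. CAMK2D was also lower with more enzyme RNA in WT, with −0.28 (−0.40 to −0.16), and had −0.02 (−0.16 to 0.12) in PIGinH11, which includes no change. CAMK2G had −0.17 (−0.62 to 0.27) in WT and −0.46 (−0.90 to −0.01) in PIGinH11. CAMK4 UMIs went from 25 to 20 in WT, with a log2 ratio of 0.99 (0.07 to 1.90), and from 36 to 13 in PIGinH11, with −2.23 (−3.26 to −1.28). A ratio as low or lower was found for 87.5% of genes in WT and 3.49% in PIGinH11. None of the 5 genes changed by at least 2-fold in the same direction in both libraries, beside 1.15% of 16170 genes higher and 0.662% lower.

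**Figure D3:**
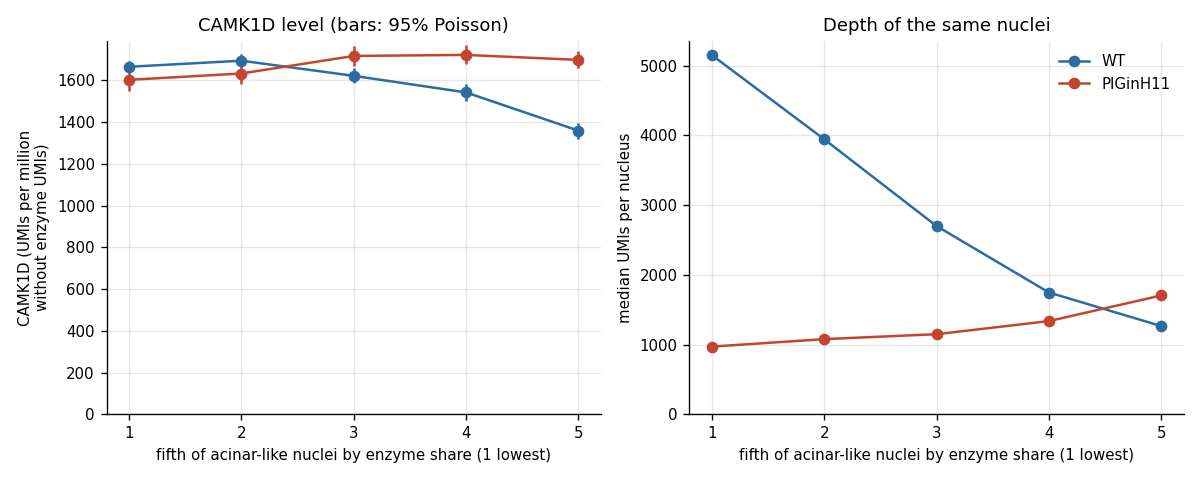
Left, CAMK1D level in acinar-like nuclei (vertical axis, CPM without enzyme UMIs, linear from 0, exact 95% Poisson intervals) by group of enzyme share (horizontal axis, 1 to 5, 1 with the least enzyme RNA); right, median UMIs per nucleus of the same groups. In WT (blue) both the level and the depth are lowest in the last group, at 1359 CPM and 1265 UMIs, while in PIGinH11 (red) the depth is highest there, at 1705 UMIs.

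CAMK2B, the CaMKII subunit best known from neurons, was detected in endocrine-like nuclei. Alpha-like nuclei had 60.9 CPM (36.1 to 96.2) from 18 UMIs in WT and 47.6 CPM (24.6 to 83.1) from 12 UMIs in PIGinH11. Beta-like nuclei had 47.6 CPM (31.9 to 68.4) from 29 UMIs and 45.1 CPM (26.7 to 71.3) from 18 UMIs. These classes were not told apart, as the alpha-like level was 1.28 times (0.669 to 2.38) the beta-like level in WT and 1.05 times (0.463 to 2.31) in PIGinH11. Delta-like nuclei had 4 UMIs in WT (48.4 CPM) and 2 in PIGinH11 (13.1 CPM), too few to place them.

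Over the alpha-like, beta-like, delta-like and gamma-like nuclei together, CAMK2B reached 50.7 CPM (37.9 to 66.5) in WT and 42.3 CPM (29.9 to 58.1) in PIGinH11. All other named classes together had 0.560 CPM (0.355 to 0.840) and 0.855 CPM (0.507 to 1.35). Acinar-like nuclei had 0.728 CPM in WT and 0.898 CPM in PIGinH11, so that the alpha-like level was 83.6-fold (42.3 to 163) and 53.0-fold (22.4 to 123) higher. No CAMK2B UMI was found in 2147 WT ductal-like nuclei, which allows a share of nuclei with a UMI of up to 0.140%, and 1 was found in 2198 PIGinH11 ductal-like nuclei. The mural-like, macrophage-like and lymphocyte-like classes were at 0 in both libraries, but with 27 to 76 nuclei each their upper limits reached 28.4 to 57.2 CPM, so a level like that of beta-like nuclei was not detectable in all of them.

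CAMK2D, the CaMKII subunit that is found in most tissues, was detected in every class and was highest in ductal-like nuclei. Their level was 929.5 CPM (909 to 950.2) in WT and 1022 CPM (987 to 1056) in PIGinH11, compared with 231 CPM (226 to 237) and 266 CPM (258 to 275) in acinar-like nuclei. The ductal-like level was thus 4.02-fold (3.89 to 4.15) and 3.83-fold (3.66 to 4.01) the acinar-like level. Shares of nuclei with a UMI after thinning to 500 UMIs were 33.8% and 32.6% in ductal-like nuclei and 10.7% and 11.4% in acinar-like nuclei, so ductal-like nuclei were also higher at equal depth. In the exocrine pancreas, CAMK1D and CAMK2D were therefore distributed in opposite ways between the acinar-like and the ductal-like nuclei.

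Schwann-like nuclei (glia of the peripheral nerves) followed for CAMK2D, with 734 CPM (605 to 882) in WT and 700.0 CPM (570 to 851) in PIGinH11, and macrophage-like nuclei with 676 CPM (517 to 868) and 585 CPM (440 to 764). The ductal-like level was 1.27-fold (1.05 to 1.54) and 1.46-fold (1.20 to 1.80) the Schwann-like level. The Schwann-like and macrophage-like levels overlapped in both libraries. Lymphocyte-like nuclei had 388 and 579 CPM and mural-like nuclei 418 and 416 CPM, but 1 WT mural-like nucleus held 23 of 52 UMIs and the level without it was 248 CPM. The remaining classes lay together at the low end, with 315 and 321 CPM in delta-like, 288 and 285 CPM in alpha-like, 286 and 304 CPM in endothelial-like, 344 and 329 CPM in stellate-like and 236 and 235 CPM in beta-like nuclei. Beta-like nuclei were not separated from acinar-like nuclei, at 1.02 times (0.861 to 1.21) their CAMK2D level in WT and 0.884 times (0.712 to 1.08) in PIGinH11.

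Within the ductal-like class, CAMK2D differed between clusters. The largest cluster, led by PKHD1, SLC4A4 and SCTR, had 962 CPM (940.0 to 985) in WT and 1119 CPM (1079 to 1161) in PIGinH11. A shallower cluster, led by SCTR and EFHC2, had 686 CPM (630.1 to 745) and 647 CPM (586 to 712). This second cluster had more CAMK1D, at 91.3 and 192 CPM compared with 34.3 and 61.9 CPM, so the cluster with less CAMK2D was the one with more of the acinar gene in both libraries. Another cluster, led by COL4A3 and SCTR, lay between them with 854 and 948 CPM of CAMK2D.

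CAMK2G, another widely found CaMKII subunit, was low in acinar-like nuclei and high in vascular ones. Endothelial-like nuclei had 127 CPM (107 to 150) from 140 UMIs in WT and 132 CPM (113 to 154) from 164 UMIs in PIGinH11. Acinar-like nuclei had 19.5 CPM (18.0 to 21.2) and 24.6 CPM (22.2 to 27.2), so the endothelial-like level was 6.50-fold (5.36 to 7.82) and 5.39-fold (4.46 to 6.49) higher. With nuclei above 1300 UMIs left out, the PIGinH11 log2 ratio went from 2.43 to 1.76. Mural-like nuclei had 121 CPM (67.5 to 199) and 123 CPM (70.41 to 200.05) and were not separated from endothelial-like nuclei. Stellate-like nuclei had 43.1 and 67.2 CPM, and the endothelial-like level was 2.95-fold (2.00 to 4.47) and 1.97-fold (1.33 to 3.01) theirs.

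Immune classes were less certain for CAMK2G. Lymphocyte-like nuclei had 93.0 CPM (34.1 to 202) from 6 UMIs in WT and 239 CPM (144 to 374) from 19 UMIs in PIGinH11, where they were the highest class. Macrophage-like nuclei had 33.2 CPM from 3 UMIs and 130.0 CPM from 12 UMIs. The position of CAMK2G in the immune classes was therefore not the same in both libraries and rested on few UMIs. Ductal-like nuclei had 44.1 CPM (39.8 to 48.8) in WT and 31.6 CPM (25.8 to 38.2) in PIGinH11, above the acinar-like level by 2.26-fold (1.98 to 2.58) and 1.29-fold (1.03 to 1.60). CAMK2G in acinar-like nuclei, at 15.4% and 18.6% of the endothelial-like level, stood far above the median endothelial marker, which was at 0.410% and 0.867%.

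The CaMKII make-up differed between classes as well. It was taken as the share of each gene among the UMIs of CAMK2A, CAMK2B, CAMK2D and CAMK2G in a class, where CAMK2A, the other neuronal subunit, comes from the list of related genes. These shares are not scaled for gene length, so they do not give the relative amounts of the subunits within a class. CAMK2D made up 91.8% (91.1 to 92.4) of these UMIs in WT and 90.8% (89.9 to 91.6) in PIGinH11 acinar-like nuclei, and 95.5% and 96.8% in ductal-like nuclei. In endothelial-like nuclei, the share of CAMK2G was 30.7% (26.5 to 35.2) and 30.3% (26.5 to 34.4), compared with 7.75% and 8.37% in acinar-like nuclei. CAMK2B had a share of 15.1% (10.4 to 21.0) and 13.5% (8.22 to 20.5) in beta-like nuclei, and of 15.7% (9.55 to 23.6) and 11.9% (6.29 to 19.8) in alpha-like nuclei. In acinar-like nuclei the CAMK2B share was 0.289% and 0.306%, so beta-like nuclei differed from acinar-like nuclei in the make-up of CaMKII while their CAMK2D levels overlapped. CAMK2A stayed at or below 5.94% in every class, a value that came from 6 UMIs of the PIGinH11 alpha-like nuclei.

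**Figure D4:**
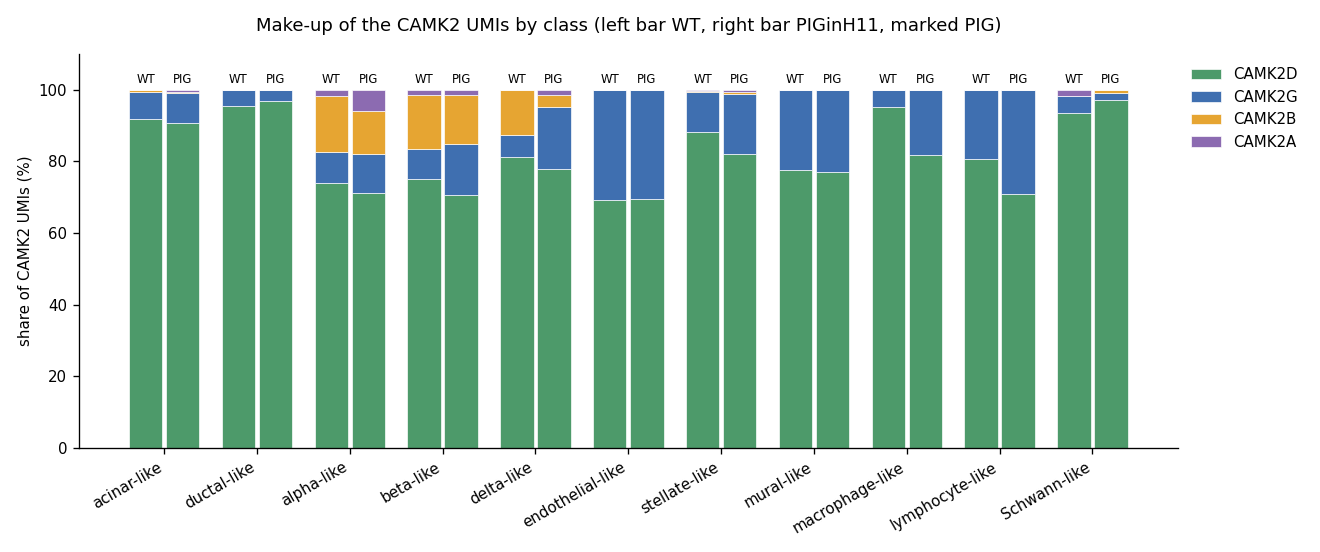
Share of CAMK2A, CAMK2B, CAMK2D and CAMK2G among their summed UMIs (vertical axis, percent, bars from 0) in each class (horizontal axis), with WT as the left and PIGinH11 as the right bar of a pair. The CAMK2D share is lower in endothelial-like (69.3% and 69.5%) than in ductal-like nuclei (95.5% and 96.8%), CAMK2B is visible in the alpha-like, beta-like and delta-like bars, and CAMK2G reaches 30.7% and 30.3% in endothelial-like nuclei.

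CAMK4 was highest in lymphocyte-like nuclei, with 1302 CPM (1039 to 1612) from 84 UMIs in WT and 957 CPM (754 to 1198) from 76 UMIs in PIGinH11. A UMI was found in 15 of 27 and 25 of 54 lymphocyte-like nuclei, beside 1.35% and 1.38% of acinar-like nuclei, and a single nucleus held at most 18 of the WT UMIs. The level was 317-fold (238 to 422) and 116-fold (86.0 to 155) that of acinar-like nuclei, with log2 ratios of 8.31 and 6.85. These were 4.31 and 5.99 when nuclei above 1300 UMIs were left out, and 7.10 and 5.76 with median-of-ratios scaling. CAMK4 was also among the leading genes of this subcluster, although it was not used for clustering. No CAMK4 UMI was found in the 28 and 41 macrophage-like nuclei, with upper limits of 40.9 and 40.0 CPM. The immune classes thus differed for this gene. The limits lay above the acinar-like level, so macrophage-like nuclei were not placed against acinar-like nuclei.

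The next class for CAMK4 was the stellate-like one, with 16.1 CPM (8.34 to 28.2) from 12 UMIs in WT and 56.0 CPM (36.3 to 82.7) from 25 UMIs in PIGinH11. The lymphocyte-like level was 80.7-fold (43.8 to 162) and 17.1-fold (10.7 to 28.0) higher than this. The stellate-like CAMK4 level was 1.24% and 5.85% of the lymphocyte-like level, beside 1.31% and 0.785% for the median lymphocyte marker, so it was at the marker background in WT and above it in PIGinH11. Acinar-like nuclei had 4.10 CPM from 124 UMIs and 8.27 CPM from 129 UMIs, which was 0.315% and 0.864% of the lymphocyte-like level beside 0.278% and 0.546% for the median marker. In ductal-like nuclei the levels were 4.31 CPM (37 UMIs) and 15.3 CPM (51 UMIs), at 0.331% and 1.60% beside 0.242% and 0.796%. CAMK4 in exocrine nuclei was thus close to the median lymphocyte marker in WT and further above it in PIGinH11.

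Within the acinar-like class, CAMK4 was highest in the cluster led by EXTL1 and GRPR, with 14.03 CPM (10.1 to 19.0) from 42 UMIs in WT and 27.8 CPM (21.1 to 35.8) from 59 UMIs in PIGinH11. The other 4 large acinar-like clusters had 0.926 to 6.13 CPM in WT and 2.64 to 10.7 CPM in PIGinH11. This cluster did not overlap with the others in either library, and of the 5 large clusters it had the lowest CAMK1D level of the PIGinH11 library, at 1168 CPM.

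The other classes were also set against acinar-like nuclei by a common rule, a level at least 2-fold higher in both libraries. The percentage given with each class is the share of all genes tested there that met the rule. Among the 5 kinase genes it was met by CAMK2D in ductal-like (12.7%), macrophage-like (9.84%) and Schwann-like nuclei (9.27%). CAMK2B met it in alpha-like (13.2%), beta-like (14.4%) and delta-like nuclei (9.93%), the last from 4 and 2 UMIs. The 2 PIGinH11 UMIs lay in 1 nucleus. CAMK2G was counted in endothelial-like (14.5%), stellate-like (14.5%), mural-like (9.39%) and lymphocyte-like nuclei (9.37%), and CAMK4 in stellate-like and lymphocyte-like nuclei. Each class thus had 1 or 2 of the 5 genes at least 2-fold above acinar-like nuclei, and CAMK1D was in no class above them.

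The genes with the most similar distribution over the 11 classes were found by Pearson correlation of log2(CPM + 5), by the lower r of both libraries, among 6672 genes. Classes of one library share its depth and free RNA, so r is a description. For CAMK1D these were GALNT10 (r = 0.84 in WT and 0.86 in PIGinH11), TOX3 (0.80 and 0.83) and SLC16A12 (0.79 and 0.83). For CAMK2B they were the endocrine genes SLC30A8 (0.97 and 0.98), the zinc transporter of insulin granules, ABCC8 (0.98 and 0.97), a subunit of the potassium channel that senses ATP, and CACNA1B (0.97 and 0.96), a calcium channel. CAMK2D was closest to C8orf34 (0.91 and 0.86), KIT (0.87 and 0.79) and PLPPR1 (0.78 and 0.82), and CAMK2G to PPP2R2A (0.77 and 0.88), GRK5 (0.76 and 0.76) and TBL1XR1 (0.72 and 0.76). CAMK4 was closest to TRAT1 (0.99 and 0.93), IL2RB (0.95 and 0.93) and TBX21 (0.92 and 0.93), which are genes of T cells and natural killer cells. Between the kinases themselves, CAMK1D and CAMK2D had the lowest value, with −0.80 and −0.78.

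The libraries were then compared within each class. The median of all genes that reached 20 UMIs on both sides was shifted to a log2 PIGinH11 over WT value of 0.23 for acinar-like, 0.15 for ductal-like, 0.13 for stellate-like, 0.09 for beta-like and −0.13 for delta-like nuclei, and lay between −0.08 and 0.04 elsewhere. A gene was counted as apart when its CPM differed by at least 2-fold and both libraries together held 20 or more of its UMIs in that class. In acinar-like nuclei 1 of 5 kinase genes (CAMK4) was apart and higher in PIGinH11, beside 24.8% of all genes apart and 21.9% higher. In ductal-like nuclei it was 2 of 4 (CAMK1D and CAMK4), both higher, beside 21% apart and 17.3% higher. With nuclei above 1300 UMIs left out the count was 0, as CAMK1D fell to a log2 ratio of 0.49 and CAMK4 to 0.36. It was 1 with doublets kept (CAMK1D 0.82), with a minimum of 500 genes (0.99) and with median-of-ratios scaling (0.98), and 1 with free RNA subtracted, where CAMK1D had no value. In stellate-like nuclei it was 1 of 4 (CAMK4), beside 13.2% and 7.09%, and in lymphocyte-like nuclei 1 of 4 (CAMK2G), beside 18% and 9.61%.

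None of the kinase genes was apart in the other classes. These had 4 genes tested and 12.9% of all genes apart in alpha-like nuclei, 4 and 12.5% in beta-like nuclei, 2 and 19.1% in delta-like nuclei, 3 and 12.7% in endothelial-like nuclei, 3 and 21.4% in mural-like nuclei, 2 and 18.8% in macrophage-like nuclei and 2 and 19.6% in Schwann-like nuclei. Among the genes with 20 or more UMIs, none was at least 2-fold lower in a class. Below that limit, CAMK2G had 6 UMIs in WT and 2 in PIGinH11 Schwann-like nuclei and CAMK2B had 4 and 2 in delta-like nuclei, so that both levels by CPM were more than 2-fold lower in PIGinH11. Both intervals included no change. Among the genes below the limit with UMIs in both libraries, others were more than 2-fold higher. These were CAMK4 in endothelial-like nuclei (2 and 11 UMIs, log2 ratio 2.29, 0.10 to 5.51) and CAMK2G in macrophage-like (3 and 12 UMIs, 1.97, 0.08 to 4.43) and delta-like nuclei (2 and 11 UMIs, 1.57, −0.62 to 4.79).

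**Figure D5:**
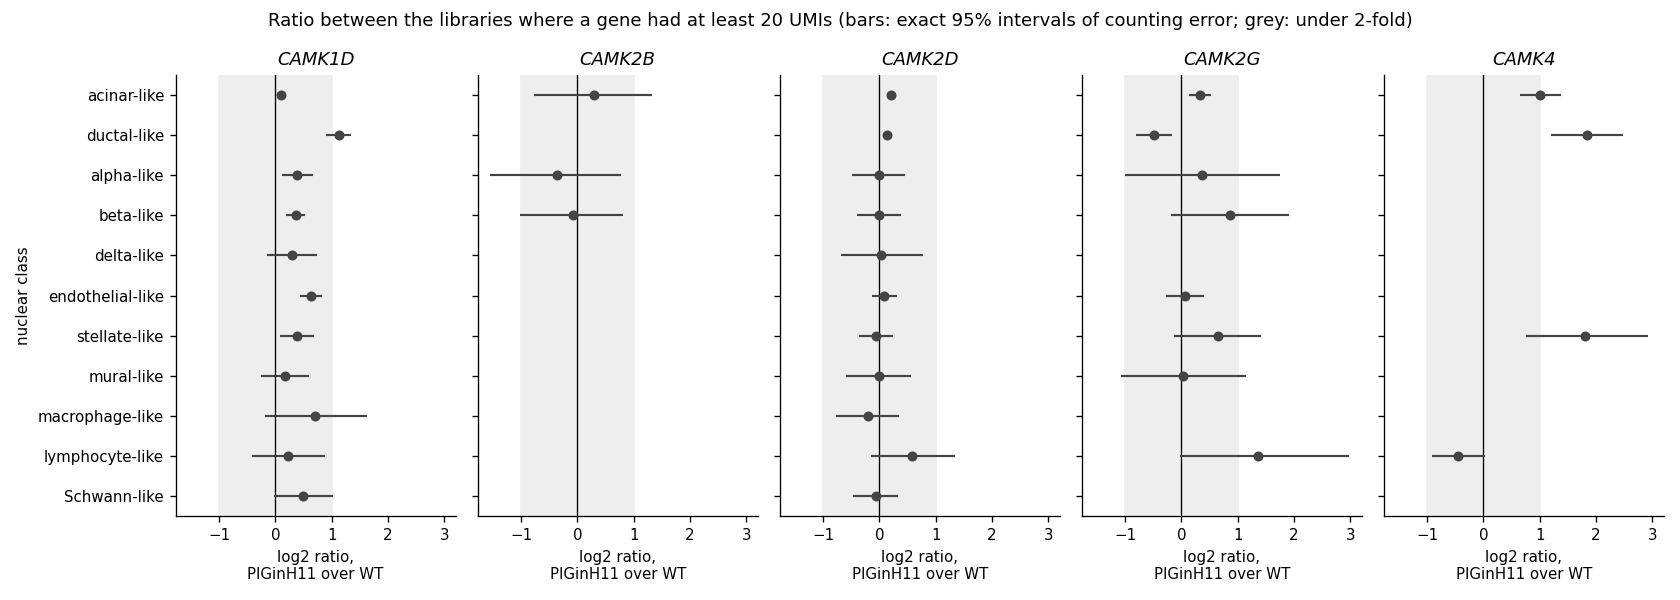
Log2 ratio of PIGinH11 over WT (horizontal axis) of each kinase gene in the 11 classes (vertical axis), where the gene had at least 20 UMIs, with exact 95% conditional binomial intervals of counting error. Grey marks ratios under 2-fold, and the points outside it are CAMK1D in ductal-like nuclei (1.13), CAMK2G in lymphocyte-like nuclei (1.36) and CAMK4 in acinar-like (1.01), ductal-like (1.83) and stellate-like nuclei (1.79).

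For CAMK1D, the acinar-like ratio was small, with a log2 ratio of 0.10 (0.08 to 0.13) by CPM, which turned to −0.13 relative to the median of all genes. The ratio by CPM was positive in all 11 classes, but turned negative in 4 more under an alternative, to −0.12 in stellate-like and −0.26 in Schwann-like nuclei once free RNA was subtracted, to −0.32 in Schwann-like nuclei without Harmony, to −0.087 in mural-like nuclei thinned to 500 UMIs and to −0.078 in macrophage-like nuclei with those above 1300 UMIs left out. Under other alternatives the ratio rose past 2-fold, up to 1.24 in delta-like, 1.34 in stellate-like and 1.53 in endothelial-like nuclei. It rose up to 1.62 in macrophage-like, 2.09 in Schwann-like and 2.42 in lymphocyte-like nuclei. The reported ratio was outside counting error in acinar-like, ductal-like, alpha-like, beta-like, endothelial-like and stellate-like nuclei. Relative to the class median it was negative in acinar-like nuclei and positive in the other 10. The log2 ratio was 0.36 (0.19 to 0.53) in beta-like and 0.39 (0.12 to 0.67) in alpha-like nuclei. Endothelial-like nuclei had 0.63 (0.43 to 0.83) and ductal-like nuclei 1.13 (0.90 to 1.35).

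The summed acinar markers moved with CAMK1D in several of these classes. Their log2 ratio was 0.82 in ductal-like nuclei, 0.57 in endothelial-like nuclei, 0.56 in beta-like nuclei, 0.39 in alpha-like nuclei and 0.15 in stellate-like nuclei, and −0.15 in acinar-like nuclei themselves. It was 0.66 in delta-like, 0.54 in lymphocyte-like and 0.82 in Schwann-like nuclei. The sums did not move with CAMK1D in acinar-like (−0.15, beside 0.10 for CAMK1D), mural-like (−0.79, beside 0.17) and macrophage-like nuclei (0.05, beside 0.71). In beta-like nuclei the sum, at 14.9% and 24.3% of the acinar-like sum, lay above the median marker, at 4.35% and 5.26%. In ductal-like nuclei the single markers ranged from −0.27 (CHN2) to 1.35 (RBPJL), a range that holds the 1.13 of CAMK1D. The part of acinar RNA in the CAMK1D ratios was not tested.

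In the exocrine classes CAMK2D hardly differed between the libraries. By CPM it had 0.20 (0.15 to 0.26) in acinar-like and 0.14 (0.08 to 0.19) in ductal-like nuclei. Relative to the class medians the values were −0.024 and −0.015. In the remaining classes it lay between −0.21 in macrophage-like and 0.58 in lymphocyte-like nuclei, with every interval including 0. The widest ranges over the alternatives were −0.55 to 1.99 in macrophage-like, 0.51 to 1.90 in lymphocyte-like and −0.05 to 0.94 in alpha-like nuclei. Acinar-like nuclei had −0.02 to 0.25 and ductal-like nuclei −0.01 to 0.36. In beta-like nuclei the values were 236 and 235 CPM, with a log2 ratio of −0.01 (−0.40 to 0.38).

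CAMK2G moved in opposite directions in the exocrine classes, with 0.33 (0.14 to 0.52) in acinar-like and −0.48 (−0.81 to −0.17) in ductal-like nuclei, where it turned to 0.082 when nuclei above 1300 UMIs were left out. The acinar-like ratio was 1.19 under that filter and 0.10 with median-of-ratios scaling. The difference between these ratios was not tested, since there was 1 library per group. In lymphocyte-like nuclei CAMK2G had 1.36 (−0.02 to 2.98), which includes no change. CAMK2B did not differ beyond counting error, with −0.36 (−1.54 to 0.78) in alpha-like and −0.08 (−1.01 to 0.82) in beta-like nuclei.

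CAMK4 was higher in PIGinH11 in acinar-like (1.01, 0.64 to 1.38), ductal-like (1.83, 1.19 to 2.48) and stellate-like nuclei (1.79, 0.75 to 2.92). In acinar-like nuclei it lay at the 2-fold limit, and relative to the class median it was 0.78. In lymphocyte-like nuclei, where the gene is abundant, the ratio was −0.44 (−0.91 to 0.02). With nuclei above 1300 UMIs left out, which kept 6 WT and 26 PIGinH11 lymphocyte-like nuclei, the ratio there turned to 2.74, and those in ductal-like and stellate-like nuclei fell to 0.36 and 0.70. The order of the classes for this ratio therefore depended on the filter. The summed lymphocyte markers had a log2 ratio of −0.61 in acinar-like nuclei, 0.84 in ductal-like nuclei, −0.32 in stellate-like nuclei and 0.06 in lymphocyte-like nuclei. The sum in acinar-like nuclei, at 11.2% and 7.07% of the lymphocyte-like sum, lay far above the median marker. The median marker went the other way there, from 0.278% to 0.546% of its lymphocyte-like level, as CAMK4 did, and in ductal-like nuclei it went from 0.242% to 0.796%. In stellate-like nuclei it went from 1.31% to 0.785%. The markers' part in the CAMK4 ratios was not tested.

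Other genes of calcium and calmodulin signalling were read from a list of 59, of which 56 had a row. In acinar-like nuclei 12 of 54 listed genes were at least 2-fold higher in PIGinH11 and 0 lower, with a median log2 ratio of 0.35 beside 0.29 for all genes. Among them, DCLK1, a kinase related to the CaM kinases, went from 166 to 334 CPM (log2 ratio 1.01, 0.95 to 1.07). ITPR1, a calcium release channel of the endoplasmic reticulum, went from 30.7 to 61.4 CPM (1.00, 0.87 to 1.13), and RYR2, another one, from 8.01 to 21.3 CPM (1.41, 1.17 to 1.66). DCLK2, DCLK3, PCP4, PPM1E, RCAN2, MEF2C and SYN1 were also higher, each at 18.9 CPM or less in both libraries. The share of listed genes apart, 22.2%, was close to the 24.8% of all genes.

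In ductal-like nuclei 7 of 50 listed genes were higher and 1 lower, 16% of the list beside 21% of all genes. The lower one was CAMKK2, an upstream kinase of CAMK1D and CAMK4, which went from 79.3 CPM (681 UMIs) in WT to 34.0 CPM (113 UMIs) in PIGinH11, a log2 ratio of −1.22 (−1.52 to −0.93). RCAN2, an inhibitor of the phosphatase calcineurin, went from 45.1 to 157 CPM (1.80, 1.61 to 1.99), and DCLK2, PPM1E, MEF2C and RYR2 were higher at 31.0 CPM or less. In alpha-like nuclei CAMKK2 moved the other way, from 64.3 CPM (19 UMIs) to 147 CPM (37 UMIs), with 1.19 (0.35 to 2.07), and DCLK1 went from 145 to 373 CPM. Of the listed genes, 3 of 29 were higher and 2 lower in alpha-like nuclei (17.2%, beside 12.9% of all genes), and 0 of 34 were apart in beta-like nuclei (beside 12.5%).

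In endothelial-like nuclei, where 3 of 44 listed genes were higher and 2 lower (11.4%, beside 12.7%), DAPK1, a death-associated kinase, went from 61.6 to 136 CPM, DCLK1 from 148 to 302 CPM, and RYR2 from 112 to 39.6 CPM (−1.51, −2.01 to −1.02). In stellate-like nuclei, with 3 of 37 higher and 1 lower (10.8%, beside 13.2%), GAP43, a calmodulin-binding protein of growing axons, went from 125 to 38.1 CPM and RCAN2 from 33.6 to 98.6 CPM. Of the smaller classes, delta-like nuclei had 2 of 16 listed genes higher (12.5%, beside 19.1% of all genes apart), mural-like nuclei 5 of 22 (22.7%, beside 21.4%), macrophage-like nuclei 1 of 16 (6.25%, beside 18.8%), lymphocyte-like nuclei 1 of 15 (6.67%, beside 18%) and Schwann-like nuclei 5 of 21 (23.8%, beside 19.6%), with 0 lower in each. The shares of the list lay on both sides of those of all genes.

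The class with the highest level was the same in both libraries for 32 of the 56 listed genes, and the share of all genes for which this holds was not computed. The genes named from here were chosen after their values were seen. PPM1E, a phosphatase of CaM kinases, was highest in beta-like nuclei, with 752 CPM (685 to 824) in WT and 874 CPM (785 to 971) in PIGinH11. MEF2C, a transcription factor regulated by calcium, was highest in macrophage-like nuclei, with 2083 CPM (1796 to 2403) and 1149 CPM (940.4 to 1389). Both lay above the next class outside counting error in each library. CAMKK2 had its highest level in lymphocyte-like nuclei, as CAMK4 did, with 233 CPM (130.2 to 384) from 15 UMIs and 202 CPM (115 to 327) from 16 UMIs, but this overlapped with the 157 CPM (130.2 to 189) and 96.4 CPM (69.7 to 129.8) of stellate-like nuclei. No listed gene had its highest level in acinar-like nuclei in both libraries, and the share of all genes that did was not computed.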

How the data were processed

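Nuclei from 1 piece of pancreas body per pig were measured with 10x Genomics 3′ v3.1 single-nucleus RNA sequencing. Alignment to Sscrofa11.1 was done by the authors with Cell Ranger (3.1.0 in the methods, 5.0.0 in the file headers), who deposited 1 matrix of whole-number UMI counts per library (55784067 UMIs in WT and 26228811 in PIGinH11) after empty droplets were removed. The counts are not normalised. Each library is its own group, so no test between groups was run.

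Barcodes were retained at 270 to 3700 detected genes, a UMI total under 13000 and a mitochondrial share under 10%. The methods print 1300 as the UMI limit, which was tried as an alternative. The authors removed doublets with DoubletFinder. Here Scrublet (scanpy 1.11.5) marked the top 0.8% per 1000 barcodes, 1484 in WT and 1791 in PIGinH11, which were removed. Counts were scaled to 10000 per nucleus, 2000 variable genes per library were reduced to 30 principal components, aligned with Harmony and clustered with the Louvain method at resolution 1 on 20 neighbours. The 5 kinases, the listed genes, 60 ribosomal protein genes and 13 mitochondrial genes did not enter the clustering. A cluster took the name of a cell type when at least 3 of its markers were found in at least 5% of nuclei at a log2 difference of at least 1, and endocrine and immune nuclei were clustered again. Of 20 clusters with at least 20 nuclei, 19 were named. Names were rebuilt and can differ from those of the study.

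Levels are UMIs of a gene per 1000000 UMIs of a class, with exact Poisson intervals, ratios have exact conditional binomial (Clopper-Pearson) intervals and shares exact binomial ones, all at 95%. They cover counting error only. A floor of 3 counts gives the upper limit of a share of 0. Symbols were missing for 15410 of 31908 genes, of which 851 were named from RefSeq. Similar genes needed at least 50 CPM in 1 class of each library, and 3 were named per kinase. Listed genes were named in the acinar-like, ductal-like, alpha-like, beta-like, endothelial-like and stellate-like classes when they differed by at least 2-fold between the libraries, with at least 50 UMIs and an interval without 1. HSP70.2 and the leading genes of clusters were chosen after their values were seen. Python 3.11.15, numpy 2.4.6 and scipy 1.17.1 were used, with seed 0. The scripts were tested on simulated data. The members and lists were chosen with earlier results of these data known. The alternatives covered cell filters, doublets, Harmony, resolution, clustering genes, scaling, depth, free RNA and the division of acinar-like nuclei.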

Additional observations from a re-analysis of the deposited data

Results flagged for a closer look

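For 3 comparisons the effect pointed in opposite directions in a pair of classes or libraries, and with 1 library per group none of these differences was tested. The log2 ratio of PIGinH11 over WT for CAMK2G was 0.33 in acinar-like and −0.48 in ductal-like nuclei. The log2 ratio of CAMK1D between acinar-like nuclei with most and with least enzyme RNA was −0.29 in WT and 0.084 in PIGinH11. The same ratio for CAMK4 was 0.99 in WT and −2.23 in PIGinH11, from 13 to 36 UMIs per group of nuclei. These groups were unlike between the libraries, as the one with most enzyme RNA had a median share of 15.3% in WT and 7.83% in PIGinH11.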

How the results depend on the processing

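No paired analysis was possible because each group had 1 library. Of 642 alternative values, 69 of the main comparisons and 38 of single ratios moved beyond the counting interval or count range of the reported value, and 1 and 4 changed sign where the reported interval left out 0. Ratios whose interval held 0 changed sign more often, for example CAMK2G in beta-like nuclei from 0.86 to −2.58 and CAMK4 in lymphocyte-like nuclei from −0.44 to 2.74 under the limit of 1300 UMIs, and CAMK2G in lymphocyte-like nuclei from 1.36 to −0.42 after thinning. The cause was not tested. Below, WT precedes PIGinH11, and the reported log2 ratios are those of the report.

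With nuclei above 1300 UMIs left out, the CAMK1D library ratio in acinar-like nuclei was 0.20, CAMK1D acinar-like over ductal-like 3.50 and 3.21, its enzyme gradient in WT −0.85, CAMK2D ductal-like over acinar-like 1.47 and 1.64, CAMK2G endothelial-like over acinar-like 2.19 and 1.76, CAMK4 lymphocyte-like over acinar-like 4.31 and 5.99 and the CAMK2G library ratio in ductal-like nuclei 0.082, with 2 kinases at least 2-fold apart in acinar-like, endothelial-like and lymphocyte-like, 1 in macrophage-like and 0 in ductal-like nuclei. With doublets kept, CAMK1D acinar-like over ductal-like was 3.02 and 2.29 and CAMK2D ductal-like over acinar-like 1.88 and 1.75, with 1 kinase apart in ductal-like nuclei. Median-of-ratios scaling gave library ratios of −0.13 for CAMK1D in acinar-like nuclei and −0.024 and −0.015 for CAMK2D in acinar-like and ductal-like nuclei, a CAMK1D acinar-like over ductal-like ratio of 4.32 in PIGinH11, a WT gradient of −0.23, CAMK2D 1.88 and 1.74, CAMK4 7.10 and 5.76, and 0 kinases apart in acinar-like and 1 in ductal-like nuclei. The mean over nuclei gave 0.058 for the CAMK1D library ratio, 4.74 and 3.60 for acinar-like over ductal-like, −0.47 for the WT gradient, 1.92 and 1.76 for CAMK2D, 7.49 and 6.19 for CAMK4, with 1 kinase apart in Schwann-like and 0 in acinar-like and lymphocyte-like nuclei. Thinning to 500 UMIs gave 0.045, 4.90 and 3.60, −0.46, 1.83 and 1.76, and 7.87 and 6.33 for the same quantities, with 1 kinase apart in Schwann-like and in delta-like nuclei. Subtracting free RNA gave 0.13 for the CAMK1D library ratio in acinar-like and −0.12 in stellate-like nuclei, 7.27 for CAMK2B alpha-like over acinar-like in PIGinH11, 2.26 and 2.38 for CAMK2D, and 2.81 for CAMK2G and 7.50 for CAMK4 in PIGinH11, with 0 kinases apart in acinar-like and 1 in ductal-like nuclei. Without enzyme, ribosomal protein and mitochondrial genes in the total, the CAMK1D library ratio was 0.057, CAMK2D 1.92 and 1.86, and 0 kinases were apart in acinar-like nuclei. When all genes could enter clustering, the CAMK1D library ratio was 0.15, the WT gradient −0.51 and CAMK2D in WT 2.06. A minimum of 500 genes left 0 kinases apart in acinar-like and 1 in ductal-like nuclei, the WT gradient was −0.17 when acinar-like nuclei were divided into 2 groups only, and without Harmony CAMK4 was 7.43 and 6.28. At Louvain resolution 2 none of these quantities moved. Some quantities had no value where too few nuclei or UMIs were left, under the limit of 1300 UMIs, the subtraction of free RNA and the thinning. Depth limits the classes with under 100 nuclei. For example, 1 WT Schwann-like nucleus held 27 of 57 CAMK1D UMIs and 1 PIGinH11 delta-like nucleus held 2 of 2 CAMK2B UMIs.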

Other observations

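Nuclei outside the named classes also held these kinases. An unnamed cluster led by enzyme genes such as CELA2A and PRSS2 (346 WT and 164 PIGinH11 nuclei) had 60.8% of its UMIs from digestive enzymes in WT and 9.04% in PIGinH11, and its CAMK1D level was 40.4 CPM in WT and 920.0 CPM in PIGinH11. Once these enzymes were taken out of the total, the level was 102.9 CPM in WT and 1011.5 CPM in PIGinH11. Nuclei that clustered with the endocrine classes but met acinar markers, also left without a class, had 889.8 and 1320.4 CPM of CAMK1D, 39.5 CPM (6 UMIs) and 31.4 CPM (7 UMIs) of CAMK2B. Nuclei that clustered with the immune classes but, when clustered again, met all 10 acinar markers and were led by genes such as RBPJL, 19 in WT and 64 in PIGinH11, were left without a class and had 881 and 992 CPM of CAMK1D. The gamma-like class, with 7 and 44 nuclei, had 1063 and 1342 CPM of CAMK1D.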
